A study of Mus musculus with 2 samples.

Results

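The set of T cell and NK cell genes holds 35 genes, listed by symbol for the T cell receptor complex, the helper and regulatory subsets, homing and cytotoxicity. They were found on the arrays by matching each probe's RefSeq accession, without its version, to a gene symbol. All 35 had a probe and were measured on both arrays, out of 20886 genes with a symbol, of which 15495 were measured. The series has 1 expression array of each of 2 groups and asks, per its title, what overexpression of HSP27 (heat shock protein 27, encoded by Hspb1) does in mice with pulmonary fibrosis induced by bleomycin. The first group is a C57BL6/N mouse lung and the second a lung of a C57BL6/N HSP27 overexpression transgenic. Both groups received bleomycin, an injurious drug, into the trachea at 1.25 mg/kg, and whole lung RNA was taken at 14 days. Both samples are labelled male and 6 weeks of age. No array of lung without bleomycin was analysed here. The labels give neither the promoter nor the species of the transgene, nor whether a sample is 1 animal or a pool.

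A single array stood for each group, so the variation between animals is unknown, no test was made and no p-value is given. Every difference below is transgenic minus C57BL6/N, in log2 of the signal after each array's 75th percentile (1287 and 1426) had been subtracted on that scale, so that equal signals on both arrays give a difference slightly below 0. A gene is called higher or lower here when it differs by at least 1.5-fold (0.58 in log2). The errors available are technical alone. The one used here is the SD of the difference between repeat spots of a probe, which was 0.17, 0.09 and 0.08 for the dimmest, middle and brightest probes. The error that the image software gives for a difference was larger, at 0.20 for Gzma, 0.27 for Ncr1, 0.29 for Ctla4 and 0.45 for Cd247. Of 39429 probes, the C57BL6/N array had 69.3% and the transgenic array 69.4% well above background.

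Several readings of other tissues and of sex separated both arrays. The sex-linked genes went against the male label of the C57BL6/N array. Xist, made by female cells, read 521 there and 2.83, a level not well above background, with the transgenic. The Y-linked Ddx3y read 508 with C57BL6/N and 2437 with the transgenic. The C57BL6/N array thus had signal from both genes. Of the 8 measured cardiac muscle markers 8 were higher in the transgenic array. The summed signal, unscaled and over all 10 listed genes with dim ones included, went from 6363 to 46643. Adipose markers were higher in 4 of 4 measured (summed signal of all 8 listed 3331 and 44396). Basal airway cell markers were higher in 4 of 4 measured (all 6 listed 2023 and 5013). Monocyte and macrophage markers were higher in 11 of 13, with a median difference of 0.93. Endothelial markers were lower in 5 of 10, with a median of -0.61. What part these differences in tissue content and sex have in the values below was not tested, and with 1 array per group no value can be given without the array concerned. In whole lung, fewer cells of a type and less RNA per cell cannot be told apart.

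T cells read antigen through a receptor held by the CD3 chains, with CD4 or CD8 as coreceptor and the kinases LCK and ZAP70 behind it, and costimulatory and inhibitory receptors set how strong the response is. Regulatory T cells, which depend on the factor FOXP3 and carry the high-affinity interleukin-2 receptor, restrain the others. NK cells have no rearranged receptor, sense targets through families of activating and inhibitory receptors, and share with CD8 T cells a killing machinery of perforin and granzymes under the T-box factors T-bet and eomesodermin.

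Over the 35 genes, 4 were higher in the transgenic array by at least 1.5-fold and 9 lower, and 22 lay within 1.5-fold. Of all 15495 measured genes 10.2% were higher and 8.31% lower, shares beside which the counts of each group below are to be read. Higher genes were thus 55.1% of all calls, against 66.5% after cyclic loess normalization. The 4 higher members, a share close to that of all genes, were Pdcd1, Foxp3, Il2ra and Ctla4. The 9 lower members were Gata3, Ncr1, Gzma, Eomes, Cd2, Tbx21, Gzmb, Prf1 and Fasl. At 2-fold, 0 members were higher and 4 lower (Gata3, Ncr1, Gzma and Eomes), against 3.81% and 1.87% of all genes. The median difference of the 35 was -0.25 and that of all measured genes -0.04, and 29 of the 35 lay below 0 against 8369 of 15495.

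Promoters are shown for 4 of the genes of the killing machinery and NK recognition that were called lower (Ncr1, Gzma, Gzmb and Prf1). They are also shown for Foxp3 and Il2ra, which were called higher, although the share of members called higher was close to that of all genes. Each is the 250 bases before the transcription start in RefSeq, assembly GRCm38.p6, on the strand of the gene. Entries were found for 27 of the 35 genes; Cd2, Cd4, Cd8b1, Cd28, Ccr7, Icos, Il2rb and Klrd1 had none. The genes and the letters marked were chosen after the expression values and the matches had been seen. Capitals mark the RUNX core TGTGGT, or its reverse complement ACCACA, in the first 4, and the NFAT core GGAAA, or TTTCC, in the last 2. Fasl, a cytotoxic gene also called lower, had an entry without the RUNX core and is not shown. For Ncr1 and Foxp3 the first of 2 listed starts is used. The intervals are chr7:4337465-4337714 (plus strand) for Ncr1, chr13:113100982-113101231 (minus) for Gzma, chr14:56262335-56262584 (minus) for Gzmb, chr10:61297586-61297835 (plus) for Prf1, chrX:7579426-7579675 (plus) for Foxp3 and chr2:11642542-11642791 (plus) for Il2ra.
Ncr1: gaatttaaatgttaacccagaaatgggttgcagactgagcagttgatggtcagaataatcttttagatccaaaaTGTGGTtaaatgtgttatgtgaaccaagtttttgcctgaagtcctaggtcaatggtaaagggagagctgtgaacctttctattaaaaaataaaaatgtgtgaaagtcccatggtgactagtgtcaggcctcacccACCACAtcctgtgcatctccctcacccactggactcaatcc
Gzma: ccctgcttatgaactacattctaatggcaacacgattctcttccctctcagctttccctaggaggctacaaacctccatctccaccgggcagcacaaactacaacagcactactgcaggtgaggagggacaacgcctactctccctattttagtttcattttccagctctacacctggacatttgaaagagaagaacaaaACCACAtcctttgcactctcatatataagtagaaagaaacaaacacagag
Gzmb: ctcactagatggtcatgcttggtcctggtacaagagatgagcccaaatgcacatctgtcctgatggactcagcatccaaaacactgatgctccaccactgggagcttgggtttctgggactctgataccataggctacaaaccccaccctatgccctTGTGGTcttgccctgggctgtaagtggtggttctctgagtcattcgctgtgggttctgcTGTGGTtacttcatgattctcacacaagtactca
Prf1: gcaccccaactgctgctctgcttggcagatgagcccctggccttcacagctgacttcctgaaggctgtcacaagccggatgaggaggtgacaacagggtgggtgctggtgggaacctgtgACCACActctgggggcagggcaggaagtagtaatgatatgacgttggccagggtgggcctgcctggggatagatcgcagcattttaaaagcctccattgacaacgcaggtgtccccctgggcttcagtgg
Foxp3: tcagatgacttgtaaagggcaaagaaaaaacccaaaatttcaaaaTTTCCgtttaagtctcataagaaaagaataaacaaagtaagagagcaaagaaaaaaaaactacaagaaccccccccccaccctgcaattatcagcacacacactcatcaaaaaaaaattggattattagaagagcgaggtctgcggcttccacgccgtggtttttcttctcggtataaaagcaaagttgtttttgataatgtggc
Il2ra: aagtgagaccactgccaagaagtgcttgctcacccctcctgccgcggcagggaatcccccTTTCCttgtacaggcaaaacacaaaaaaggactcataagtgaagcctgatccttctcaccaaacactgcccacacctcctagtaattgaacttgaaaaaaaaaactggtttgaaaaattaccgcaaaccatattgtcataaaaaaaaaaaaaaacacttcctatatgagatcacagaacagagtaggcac

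In all, 9 short motifs were searched on both strands of these windows, and a match is only a run of letters. The RUNX core stood in 7 of the 9 NK receptor and cytotoxic genes with an entry (Ncr1, Klrb1c, Klrk1, Gzma, Gzmb, Prf1 and Nkg7), in 9 of all 27 members and in 15.9% of 27025 genes. Among the members with an entry it was present in 4 of the 8 lower genes and in 0 of the 4 higher ones. The other members holding it (Lck, Zap70, Klrb1c, Klrk1 and Nkg7) lay within 1.5-fold. The NFAT core was in 4 of the 4 higher genes, 4 of the 8 lower genes and 21 of 27 members, but also in 58.8% of all genes. The ETS core GGAAGT, which shares the letters GGAA with the NFAT core, was in 13 of 27 members and 22.2% of all genes. The T-box core TCACAC was in 5 of 27 members, including Ncr1 and Gzmb, and in 13.9% of all genes. The remaining searches, by member count and share of all genes, gave 3 and 15.8% for the TCF core CTTTGA, 1 and 5.16% for the AP-1 site TGACTCA, 2 and 11.4% for the GATA site AGATAA, 4 and 14.3% for TATAAA, and 0 and 3.54% for the FOX site TGTTTAC.

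The T cell receptor complex and its proximal signalling genes differed little between the arrays: 0 of these 7 genes were higher or lower, and their median was -0.18. The CD3 chains, which carry the receptor's signal into the cell, were close in signal. Here and below the C57BL6/N signal comes first and the transgenic signal next. Cd3d read 1576 and 1543 (difference -0.18), Cd3e 1374 and 1372 (-0.15), and Cd3g 709 and 719 (-0.13). These differences were alike among the 3 chains. Cd247, the zeta chain, was dim at 14.3 and 15.4 (-0.05), near the lowest signals called well above background (11.9 and 12.5), so that little can be read from it. The kinase Lck, which starts the signal, read 3048 and 2765 (-0.29). Zap70, the kinase recruited to the CD3 chains, was at -0.35 and -0.22 by its 2 probes, a mean of -0.29. Lat, the adaptor that ZAP70 phosphorylates, read 338 and 305 (-0.30). All 3 signalling genes were lower in the transgenic array by less than 1.5-fold.

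Among coreceptors and adhesion molecules, Cd2 alone was lower beyond 1.5-fold, while the coreceptors themselves were within it. Cd4, the coreceptor of helper T cells that is also made by some macrophages and dendritic cells, read 1649 and 1688 (-0.11). Its other probe, dim and with 77.8% of C57BL6/N spots but 20% of transgenic spots well above background, was not used. Cd8a, a chain of the coreceptor of cytotoxic T cells, was at -0.23 and -0.15 by its 2 probes, and Cd8b1, the partner chain that is more restricted to T cells, read 168 and 156 (-0.25). CD4 and CD8 genes thus moved little and by similar amounts.

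Cd2 is an adhesion receptor of T cells and NK cells that binds CD48 in the mouse. Its first probe, printed in 10 spots, read 464 at the lowest, 484 at the median and 509 at the highest spot of the C57BL6/N array, and 276, 299 and 320 among the transgenic spots. The spots of the arrays did not overlap, and the difference was -0.85. The second probe read 5587 and 3189 (-0.96). Both probes had the same direction, with a mean of -0.90 (1.87-fold lower), a value that 2.63% of all measured genes did not exceed. For comparison, the Cd8a probe in 10 spots ran from 96.4 to 115 (median 104) in C57BL6/N and from 89.4 to 108 (median 99.4) in the transgenic, and these ranges overlapped. Cd48, the ligand of CD2 on many leukocytes, was higher at 1750 and 2991 (0.63).

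**Figure D1:**
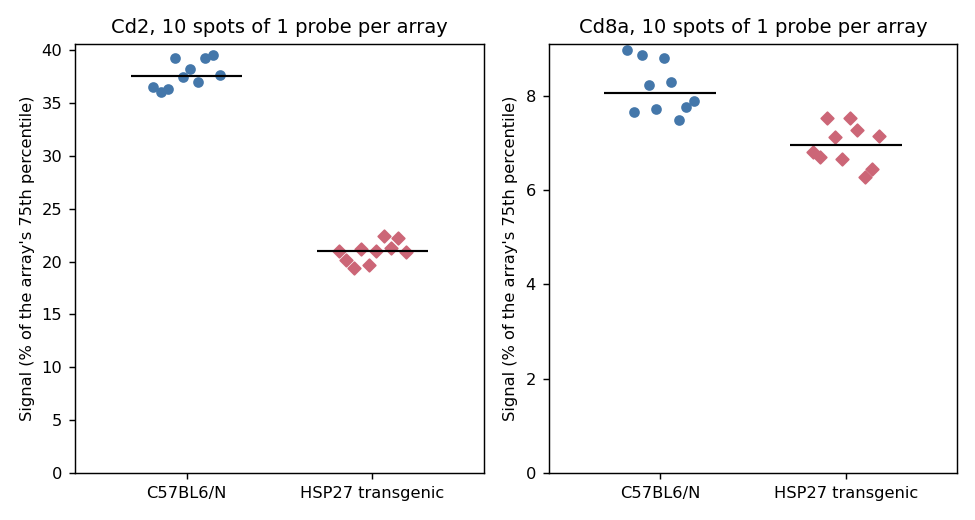
Signal of each of 10 repeat spots of the Cd2 probe (left) and the Cd8a probe (right) as a percent of the array's 75th percentile, for the C57BL6/N array (circles) and the HSP27 transgenic array (diamonds); bars are medians. The Cd2 spots ran from 36.1 to 39.6 in C57BL6/N and from 19.4 to 22.4 in the transgenic, whereas the Cd8a spots ran from 7.49 to 8.97 and from 6.27 to 7.54, so that they just met. Spots show technical spread alone.

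Of these 4 receptors the costimulatory Cd28 and Icos were within 1.5-fold, and the inhibitory Ctla4 and Pdcd1 were higher. Cd28, the main costimulatory receptor, read 362 and 345 (-0.22), and Icos, the inducible one, was at -0.31 and -0.04 by its 2 probes (mean -0.18). Ctla4, which competes with CD28 for its ligands and is abundant in regulatory T cells, was dim at 20.9 and 37.0 (0.68). Pdcd1, encoding the checkpoint receptor PD-1, read 128 and 281 (0.98, 1.98-fold higher). Of the checkpoint ligands, Pdcd1lg2 (PD-L2) was higher at 76.2 and 162 (0.94), while Cd274 (PD-L1) was at 0.07. The ligands shared by CD28 and CTLA4 were within 1.5-fold, Cd80 at 0.35 and Cd86 at 0.21, as was Icosl, the ligand of ICOS, at 0.08.

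Il2ra, the chain that gives the interleukin-2 receptor its high affinity and marks regulatory and activated T cells, read 224 and 477 (0.94, 1.92-fold higher). Its partner chains were level or slightly higher, Il2rb at 474 and 517 (-0.02) and Il2rg at 1016 and 1491 (0.41). The receptor for the survival cytokine interleukin-7, Il7r, read 883 and 1010 (0.05), and Ccr7, which guides naive and central memory T cells and dendritic cells to lymph nodes, read 4451 and 4112 (-0.26). Of these 4 members Il2ra alone passed 1.5-fold. The cytokine Il2 itself was near background at 13.9 and 13.8 (-0.16).

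The transcription factors included members of both directions, with 1 higher, 3 lower and 2 within 1.5-fold. Foxp3, the factor of regulatory T cells, read 64.7 and 141 (0.98, 1.97-fold higher). Together with Il2ra, Ctla4 and Pdcd1 it made up the 4 higher members. Gata3, the factor of type 2 helper T cells and innate lymphoid cells, also made by other lung cells, read 1453 and 644 (-1.32). Tbx21, encoding T-bet of type 1 helper and NK cells, read 250 and 172 (-0.69). Eomes, the related factor of NK and memory CD8 T cells, read 111 and 58.8 (-1.06, 2.09-fold lower) by its usable probe, while its second probe was not well above background on either array. Tcf7 and Lef1, partner factors of naive and memory T cells, were lower by less than 1.5-fold. Tcf7 was at -0.53 by each of its 2 probes, and Lef1, also made by epithelium and mesenchyme, read 687 and 570 (-0.42).

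**Figure D2:**
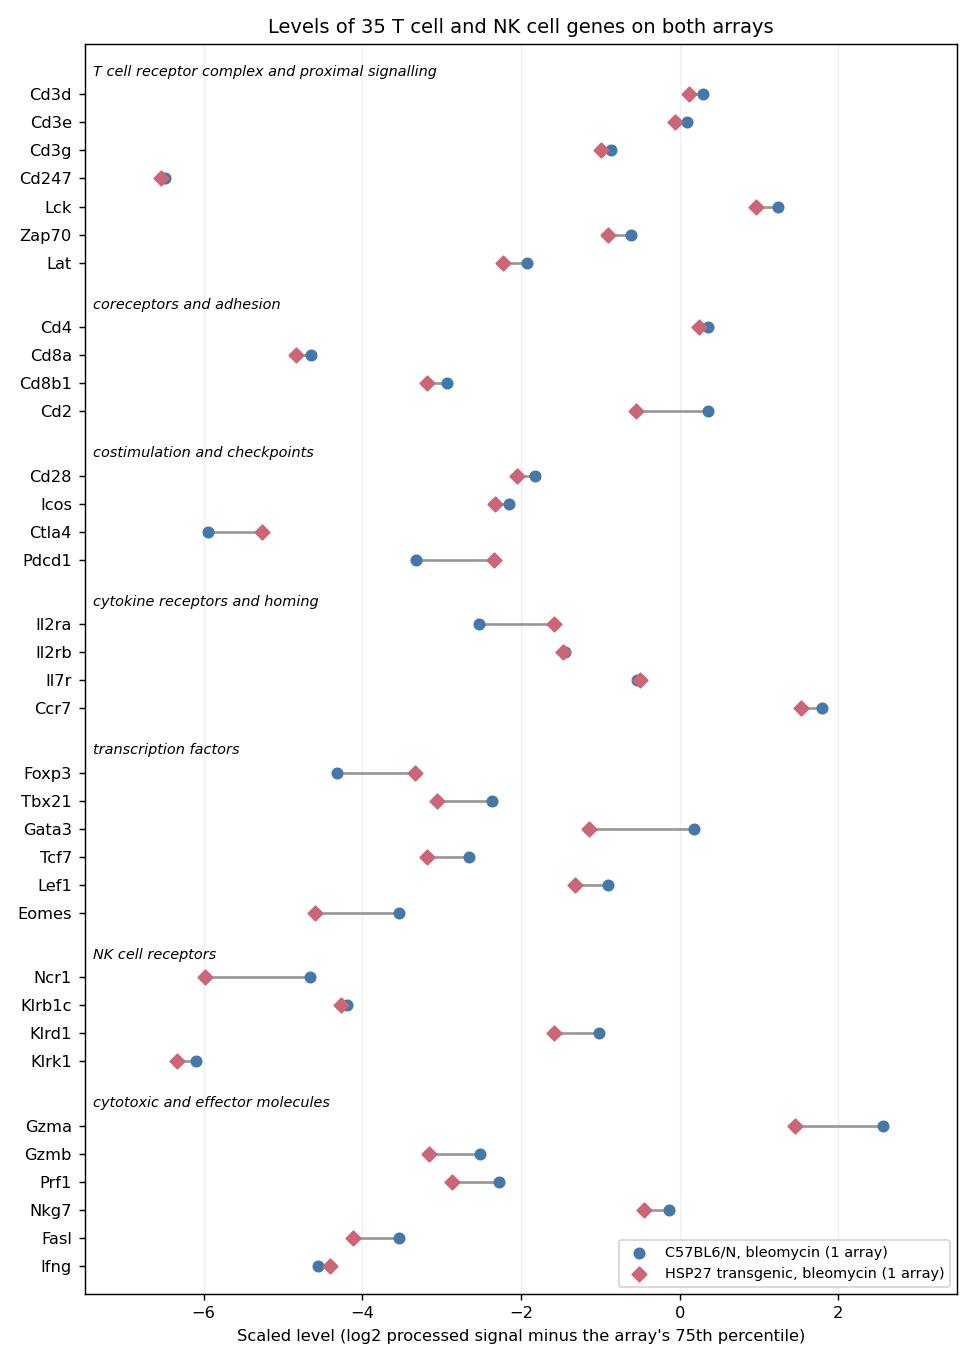
Scaled level of each of the 35 genes with C57BL6/N (circles) and HSP27 transgenic (diamonds), as log2 processed signal minus the array's 75th percentile, grouped by role; 1 array per group, without error bars. Pairs are to be read within a gene, since levels of different probes are not comparable. The diamond lies to the left in 29 genes, with the widest gaps for Gata3 and Ncr1, and to the right by over 0.6 for Foxp3, Pdcd1, Il2ra and Ctla4.

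Of the 4 NK cell receptors, Ncr1 alone passed 1.5-fold. Ncr1 encodes NKp46, an activating receptor largely restricted to NK cells and related innate lymphoid cells, and read 51.0 and 22.6 (-1.32). Klrd1, the CD94 chain that pairs with NKG2 receptors, read 636 and 475 (-0.57). Klrk1, encoding NKG2D, was dim at 18.8 and 17.6 (-0.24). The probes of Klrb1c, encoding NK1.1, disagreed in sign at 0.23 and -0.37, so that no direction is given. The Klr genes lie in families of very similar sequence, and their probes may read more than 1 member.

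Among cytotoxic and effector molecules, 4 of 6 were lower and 0 higher. Gzma, a granzyme of NK cells and cytotoxic T cells, was bright at 7594 and 3898 (-1.11, 2.16-fold lower). Gzmb, the granzyme that activates caspases, read 225 and 159 (-0.65). The pore-forming protein perforin, Prf1, read 266 and 195 (-0.60). Fasl, the ligand of the death receptor FAS, read 111 and 81.8 (-0.59), while Fas itself, made by many cells, was at -0.11. Prf1 and Fasl were just past 1.5-fold, while Klrd1 at -0.57 and Tcf7 at -0.53 just missed it. Nkg7, a protein of cytotoxic granules, was at -0.40 and -0.23 by its 2 probes (mean -0.31). Ifng, the interferon of type 1 responses, was at 54.5 and 67.3 (0.16), the one member of the group above 0. Of the NK receptors and cytotoxic molecules together, 5 of 10 were lower and 0 higher, with a median of -0.58.

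**Figure D3:**
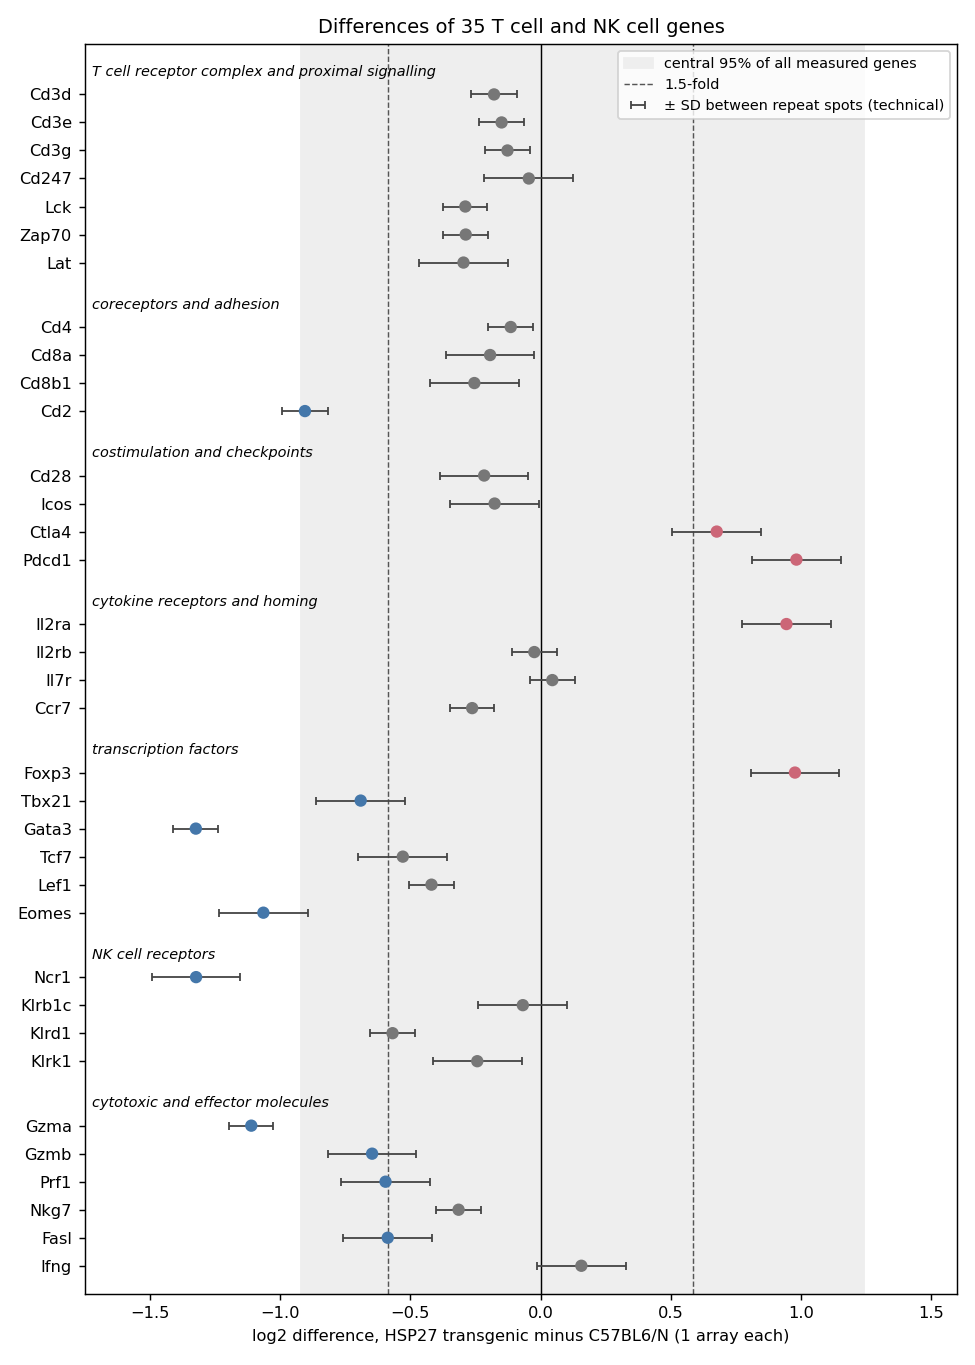
Difference of each of the 35 genes, transgenic minus C57BL6/N in log2, grouped by role; bars are the SD between repeat spots of probes of like brightness, which is technical and says nothing of animals. The error given by the image software was larger than these bars. Blue points are at least 1.5-fold lower (9 genes), red points at least 1.5-fold higher (4) and grey points within (22); the shaded span from -0.92 to 1.24 holds the central 95% of all measured genes. Gata3, Ncr1, Gzma and Eomes lie below that span, and no member lies above it.

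Related genes outside the set gave the wider picture of each role. Of 32 other measured NK and cytotoxic genes, 12 were lower and 4 higher (median -0.33). The lowest were Klre1, an NK receptor, at 105 and 33.2 (-1.82), and S1pr5, the receptor by which NK cells leave lymphoid organs, at 246 and 82.1 (-1.73). Further inhibitory or activating receptors of the Ly49 family were lower as well, with Klra1 at -1.50, Klra4 at -1.38, Klra7 at -1.10 and Klra8 at -1.05. By symbol, 21 Klr genes were measured, and 10 were lower and 1, Klra17 at 0.84, higher; this family rule was added after the values had been seen, and their sequences are similar enough for shared signal. The highest of the NK and cytotoxic list were the chemokine Ccl3 at 158 and 329 (0.91), made also by macrophages, and Gzmc at 23.6 and 46.4 (0.83). Within the granzymes the direction was thus mixed: of 6 measured, Gzma and Gzmb were lower, Gzmc and Gzme (0.84, dim at 29.9 and 59.4) higher, and Gzmk (0.18) and Gzmm (0.35) within 1.5-fold.

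Genes of T cell receptor signalling beyond the 7 members had 2 lower and 0 higher of 27 (median -0.29), against 8.31% lower and 10.2% higher of all genes. Among the lower was Prkcq, the protein kinase C of the T cell synapse, at 726 and 511 (-0.66). Cd5, a T cell surface protein, was level at 900 and 1010 (0.02). Of 16 other activation and regulatory genes, Capg (0.71), an actin-capping protein also of macrophages, was higher and Cd200 (-0.64), a surface protein also of endothelium, lower (median 0.12). Some other genes found in regulatory T cells, named next, lay on either side of 0 and within 1.5-fold. The TNF receptor family had Tnfrsf4 at 1006 and 1579 (0.50), Tnfrsf9 at 502 and 736 (0.40) and Tnfrsf18 at 898 and 1273 (0.35). Lrrc32, which presents latent TGF-beta, read 9530 and 8438 (-0.32). The ectoenzyme Nt5e (CD73) read 8997 and 7192 (-0.47), and Entpd1 (CD39), another, 1156 and 1276 (-0.01). The part of cells other than regulatory T cells in these signals was not tested. These genes were picked after their values had been seen. The inhibitory receptor Tigit cleared background only with the transgenic (13.7 and 31.7), at least 2.08-fold higher by the bound. The inhibitory receptors Lag3 (0.38), Havcr2 (0.18) and Btla (-0.01) were within 1.5-fold, as was Ikzf2, encoding Helios of regulatory T cells, at 0.11.

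Of 22 measured helper subset genes 1 was higher and 0 lower. The median of this list was 0.09. The type 2 cytokine Il4 was dim at 20.8 and 15.6 (-0.56). Il5 cleared background only with C57BL6/N (16.8 and 13.1, at least 1.41-fold lower by the bound), and Il13 with neither. Other type 2 genes of the list were within 1.5-fold on either side of 0. Il1rl1 was at -0.17 and 0.80 by its 2 probes (mean 0.32), Ccr4 at 0.21 and Il17rb at -0.33. Among markers of group 2 innate lymphoid cells, which share Gata3, the median was 0.25 over 9 genes, but -0.17 with a stricter filter on dim probes or with the brightest probe of each gene. The list had Arg1, an enzyme also of macrophages, as its 1 higher gene at 2.35 and Areg, a growth factor, as its 1 lower gene at -0.67.

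Lymphocyte homing genes were lower in 3 of 10 and higher in 0 (median -0.35). Klf2, the factor that keeps T cells in circulation, was at 33780.1 and 17859.8 (-1.07), its target S1pr1, the receptor for exit from lymph nodes, at -0.92, and Cxcr4 at -0.83. Endothelium expresses Klf2 and S1pr1 strongly, and the endothelial markers were lower by a median of -0.61. What part endothelium has in the values of these homing genes was not tested.

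Ligands and partner chains of the members were higher in 4 of 23 and lower in 0 (median 0.21). The largest differences were those of Cxcl10, at 655 and 2810 (1.95), and Cxcl9, at 84.8 and 288 (1.61), which draw activated T cells through the receptor CXCR3. Their receptor gene Cxcr3 was within 1.5-fold at 586 and 720 (0.15). Both chemokines are induced by interferon gamma, and of 20 measured genes of that response 4 were higher and 1 lower, with a median of 0.10. The highest of these were H2-DMa (0.94), of antigen loading, and Socs1 (0.69), a feedback inhibitor, and the lower one was the GTPase Gbp3 (-0.64). Il15, the cytokine that sustains NK cells, was at 103 and 137 (0.27).

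Genes of leukocytes in general lay slightly above 0. Of 15 pan-leukocyte genes 2 were higher and 0 lower, with a median of 0.16, and Ptprc, which encodes CD45, read 1377 and 1703 (0.16). Markers of B and plasma cells lay lower, at a median of -0.38, with 3 of 14 lower and 0 higher. Mast cell and basophil markers were lower in 3 of 6 (median -0.50). The thymus markers had 0 of 6 higher or lower and a median of -0.10.

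**Figure D4:**
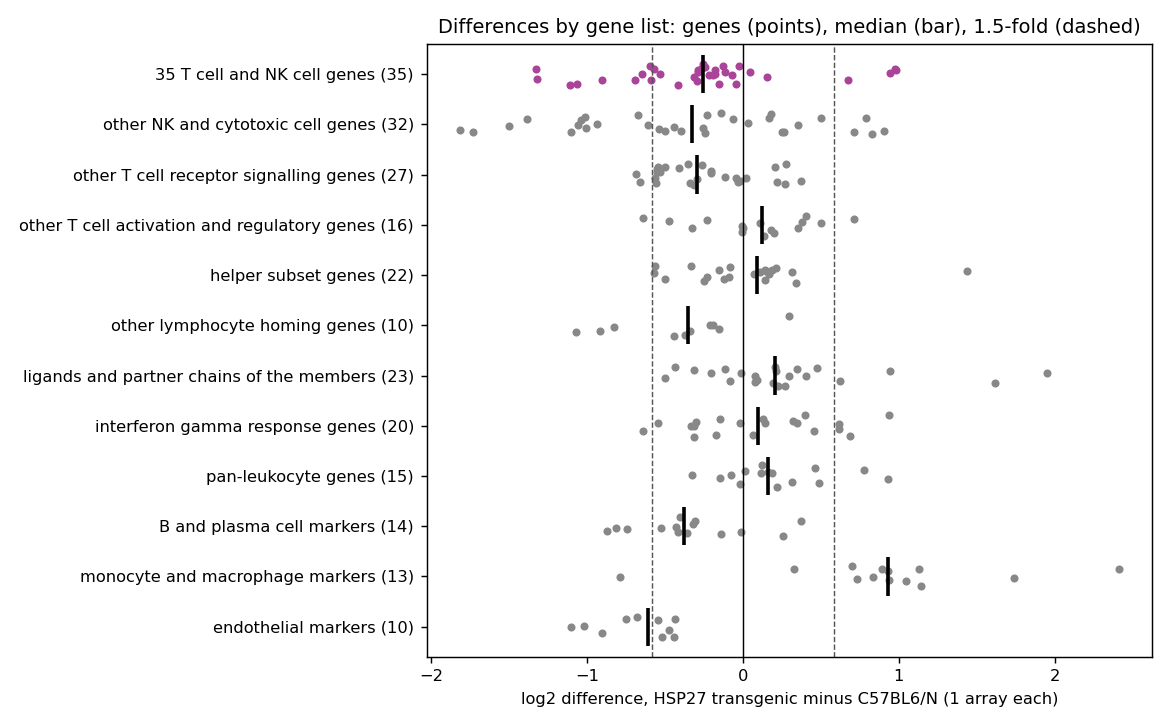
Differences in log2, transgenic minus C57BL6/N, of single measured genes (points) in the set of 35 and in 11 other lists, with the number of genes in brackets; black bars are list medians and dashed lines 1.5-fold. The medians run from -0.61 for endothelial markers to 0.93 for monocyte and macrophage markers, with -0.25 for the 35 genes and -0.33 for other NK and cytotoxic genes. Some genes stand in more than 1 list, and 1 array per group gives no error between animals.

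Processing decided several of the calls near the limit. Gata3, Gzma, Eomes, Cd2, Pdcd1 and Il2ra passed 1.5-fold in the same direction under every setting that measured them, apart from the planned normexp background correction. That correction moved the median of all genes by 0.64, and with it Gata3 was at -0.32, Cd2 at -0.31 and Eomes at 1.89; the statements below leave it out. Tbx21 fell short only with a second normexp fit, added after seeing the data, which left out spots whose local background reached their signal (-0.54). That fit also brought the dim genes nearer to 0, with Ncr1 at -0.56, Foxp3 at 0.50 and Ctla4 at 0.15. Gzmb fell short with it (-0.45) and after cyclic loess (-0.55). Prf1 and Fasl were past 1.5-fold in 5 of 9 and 4 of 8 of these settings, and lost their calls with median scaling (-0.54 and -0.53), quantile normalization (-0.57 and -0.53), cyclic loess (-0.50 and -0.46) and the added normexp (-0.49 and -0.31).

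**Figure D5:**
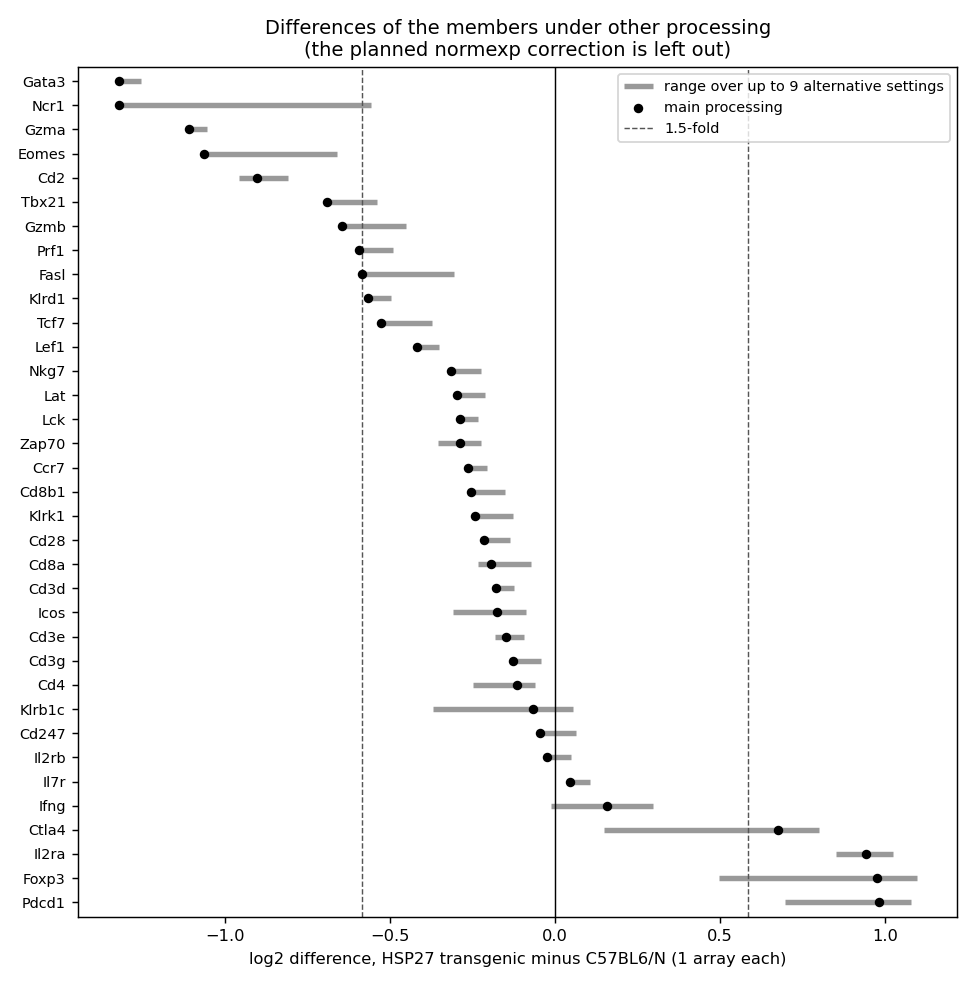
Difference of each of the 35 genes in log2, transgenic minus C57BL6/N, with the processing used throughout (black points) and its range over up to 9 other settings (grey bars), the planned normexp correction left out; dashed lines mark 1.5-fold. Gata3 stayed between -1.32 and -1.26 and Gzma between -1.11 and -1.06, while Ncr1 ranged from -1.32 to -0.56 and Ctla4 from 0.15 to 0.80.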

How the data were processed

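Per the file headers, the deposited files hold fluorescence intensity per spot of 1-colour (Cy3) Agilent arrays from Feature Extraction 11.5.1.1; the processed signal is background-subtracted and detrended, with no normalization between arrays. The deposited series table is the same intensity (39030 of 39030 single-spot probes equal within 0.1% on each array). Control and outlier spots were left out, spots averaged in log2, and the 75th percentile over all probes subtracted. Probes counted if well above background in at least 50% of spots on both arrays, and a gene is the mean of its usable probes (42 of 44 for the members). The technical SD is the pooled SD of differences between repeat spots, over 105 probes in each of 3 brightness groups, an estimator settled after the data were seen. A gene that cleared background in a single array is given a bound, against the higher of the dim probe's own signal and the lowest signal well above background there. Probes were named through a RefSeq table of GRCm38.p6, although the headers name mm9, so it served for names, and promoters are its own. The members and the gene lists were chosen with earlier results of these data known. Named genes are the 35 members, up to 2 highest and 2 lowest of each other list past 1.5-fold, and direct partners of members. Cd5, Klra1, Klra4, Klra7, Klra8, Klra17, Gzme, Lrrc32, Nt5e, Entpd1, Lag3, Havcr2, Btla, Tnfrsf4, Tnfrsf9, Tnfrsf18, Tigit, Ikzf2, Il2, Il4, Il5, Il13, Il1rl1, Il17rb, Ccr4, Cxcr4, Gzmk, Gzmm and Ptprc fall outside it and were picked after their values were seen. Some genes that the rule names are not reported here. Both arrays lay on 1 slide and scan. Alternatives were 2 normexp corrections (offset 50, limma 3.58.1 in R 4.3.3), median scaling, quantile and cyclic loess normalization, no or a stricter filter on dim probes (25th percentile), outlier spots kept, the brightest probe, the deposited table and 2-fold. The steps were tested on simulated data. Python 3.11.15, numpy 2.4.6, pandas 2.3.3 and matplotlib 3.10.9 were used.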

Additional observations from a re-analysis of the deposited data

How the results depend on the processing

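With 1 array per group, no replicate could be left out. No paired analysis was possible because each group has 1 array. The planned normexp correction (offset 50) moved the median of all genes by 0.64. It met 6 spots on the transgenic array whose local background was at or above their signal (highest 217431, against a median background of 33.5). Under it the member median was 1.34, 23 members were higher and 3 lower, and 8 lay below 0 in place of 29. Of the 4 higher and 9 lower members, Eomes (1.89), Fasl (2.07), Gzmb (1.49), Ncr1 (2.31), Prf1 (1.34) and Tbx21 (1.54) turned sign. So did the medians of the cytotoxic molecules (1.42), transcription factors (1.54), NK receptors (2.25), receptor complex with its signalling genes (0.30) and coreceptors (0.74). The added normexp without such spots gave 2 higher and 4 lower. It moved the median of all genes by -0.003, with 29 members below 0. Cyclic loess moved the member median to -0.15. A stricter filter on dim probes left 26 members with 2 higher, and put the basal airway median at -0.23, from the 1 probe of Trp63 it kept. At 2-fold the counts were 0 and 4. Apart from the stricter filter and threshold, which by construction keep fewer genes, the cause of these shifts was not tested. The lower members numbered 7 under median scaling, 7 under quantile and 6 under cyclic loess, while the higher remained 4 in number. Lower NK receptor and cytotoxic genes were 5 of 10, but 3, 3, 2 and 1 under median scaling, quantile, cyclic loess and the added normexp. The remaining alternatives moved no member count by over 1.5 times. Dim genes (Cd247, Klrk1, Ctla4 and Ncr1) are limited by their signal over background.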
